A study of Mus musculus with 4 samples.

Results

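The 9 genes described here are the S100 genes S100a6, S100a10, S100a11, S100a14 and S100a16 and the annexin genes Anxa1, Anxa2, Anxa5 and Anxa8. They were taken by name from the 24378 gene rows of 4 tables of single-cell counts, and each of the 9 had 1 row in every table. The cells were basal cells of the interfollicular epidermis, sorted as live CD49f+/LY6A+/CD34-negative cells from dorsal skin of female mice at 57 days of age. All mice carried Ivl-CreERT2 and R26-tdTomato and all had received tamoxifen by intraperitoneal injection, 2 days before isolation. The labels give the dose as 10 μg/g, and the methods of the study's paper state a higher one. In these mice the involucrin promoter drives an inducible Cre recombinase, and a cell in which Cre was active keeps tdTomato. Tom+ cells were sorted as traced (tdTomato-positive) and Tom- cells as non-traced, so the Tom- cells carried the same alleles and had met the same tamoxifen. The labels name 2 mice and 4 libraries but not which mouse gave which library. The p-values below therefore measure the spread between libraries, which may be technical. In fits with library as a block they measure how a difference within libraries varies between them.

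S100 proteins are small EF-hand proteins that change shape when they bind calcium and then dock on other proteins. Annexins bind acidic membrane lipids in the presence of calcium, and several of them are held to membranes by an S100 dimer. The best known of these complexes is that of S100A10 with annexin A2, and S100A11 binds annexin A1 in the same way. S100A10 differs from its relatives in that it no longer needs calcium for this. In epidermis the S100 genes lie in and beside the epidermal differentiation complex, a cluster that also holds genes of the cornified envelope, and annexin A1 is among the proteins cross-linked into that envelope.

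In the GENCODE annotation of GRCm38 (mm10, the build that the submitters' processing notes name), all 9 are protein-coding genes and all 5 S100 genes lie on chromosome 3. S100a14 spans chr3:90526856-90528837, S100a16 chr3:90537254-90543151 and S100a6 chr3:90612882-90624181. S100a11 at chr3:93520488-93526287 and S100a10 at chr3:93555080-93564643 lie next to each other at the other end of a stretch of 3037.8 kb. The annexin genes are apart from them, with Anxa5 at chr3:36448923-36475894, Anxa2 at chr9:69453620-69491795, Anxa8 at chr14:34085981-34100571 and Anxa1 at chr19:20373428-20390944.

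The 250 bases before the annotated start are given here for 4 of the genes, from RefSeq on GRCm38.p6 and written 5′ to 3′ on the gene's own strand. S100a6 and Anxa8 are shown because their levels moved in opposite directions with Krt10, and S100a11 and Anxa2 because they hold most of the motif matches and formed 1 of the 5 pairs with the highest covariation. Capitals mark matches on either strand to 4 motifs. The TATA box was searched as TATAAA and the motif of NF-Y as CCAAT. The GC box, bound by Sp1, was searched as GGGCGG and the motif of AP-1 as TGANTCA.
S100a6 (chr3:90612644-90612893, plus strand): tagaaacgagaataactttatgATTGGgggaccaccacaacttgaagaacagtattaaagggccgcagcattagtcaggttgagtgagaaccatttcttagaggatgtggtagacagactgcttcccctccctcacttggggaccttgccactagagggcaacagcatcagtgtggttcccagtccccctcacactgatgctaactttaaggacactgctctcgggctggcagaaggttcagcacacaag
Anxa8 (chr14:34085729-34085978, plus strand): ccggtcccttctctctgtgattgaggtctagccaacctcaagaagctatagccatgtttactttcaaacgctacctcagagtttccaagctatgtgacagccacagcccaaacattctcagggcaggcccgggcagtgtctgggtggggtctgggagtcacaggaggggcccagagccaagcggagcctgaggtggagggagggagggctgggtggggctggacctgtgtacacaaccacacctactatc
S100a11 (chr3:93520246-93520495, plus strand): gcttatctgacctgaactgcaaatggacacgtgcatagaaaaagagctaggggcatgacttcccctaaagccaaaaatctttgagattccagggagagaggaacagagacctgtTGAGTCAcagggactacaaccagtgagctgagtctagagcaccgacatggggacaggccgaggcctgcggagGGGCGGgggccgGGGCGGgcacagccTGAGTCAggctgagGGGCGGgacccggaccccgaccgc
Anxa2 (chr9:69453433-69453682, plus strand): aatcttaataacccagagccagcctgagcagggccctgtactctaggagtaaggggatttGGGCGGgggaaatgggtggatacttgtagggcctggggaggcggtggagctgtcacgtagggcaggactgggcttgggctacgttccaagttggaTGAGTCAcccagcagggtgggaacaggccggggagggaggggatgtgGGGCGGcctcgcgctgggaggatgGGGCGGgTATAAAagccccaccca
No 2 of these matches overlapped. The S100a11 window held 2 AP-1 matches and 3 GC boxes, and the Anxa2 window held 1 AP-1 match, 3 GC boxes and 1 TATA box. The S100a6 window held 1 CCAAT match and none of the other motifs, and the Anxa8 window held none of the 4. RefSeq gave 8 such windows for 7 of the 9 genes. The AP-1 motif was in 3 of these 8 windows and in 6.75% of all 32851 windows of that length, the GC box in 3 and in 32.7%, the TATA box in 2 and in 12.4%, and the CCAAT motif in 1 and in 33.8%. A match is a description of the letters only, and a window without one says nothing about the factor.

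Wells with at least 2000 gene UMIs (molecules counted once by their barcode) were kept, which left 161 cells of 384 wells: 35 in Tom+ 1, 58 in Tom+ 2, 20 in Tom- 1 and 48 in Tom- 2. The libraries held 81630 to 305407 gene UMIs, and the median cell 3225 to 4524.5. No well name was shared between libraries. All 161 cells held UMIs of at least 3 of the 7 markers of basal interfollicular cells. For infundibulum, the upper part of the hair follicle, 52 cells held at least 3 of 8 markers, which summed to 706 to 2233 CPM (UMIs scaled to 1000000 gene UMIs of the library or class) in the libraries. T cell and Langerhans markers reached that number in 3 and 2 cells, and bulge, sebaceous, melanocyte, fibroblast and endothelial markers in none. Markers were counted at each cell's full depth. Of the infundibulum markers, Krt17 was seen in 16, 37, 16 and 32 cells of Tom+ 1, Tom+ 2, Tom- 1 and Tom- 2. Krt6a was seen in 14, 34, 11 and 21 in the same order, but Krt79 in only 0, 5, 0 and 2. To compare cells of unequal depth, each was thinned at random to 2000 UMIs. A cell with at least 6 Krt10 UMIs after thinning is called Krt10-high here and every other cell Krt10-low, since Krt10 is the keratin switched on as basal cells differentiate. Krt10-high cells numbered 25 of 35, 37 of 58, 3 of 20 and 3 of 48 in Tom+ 1, Tom+ 2, Tom- 1 and Tom- 2. The median depth was 3606 to 4914 UMIs in Krt10-high and 3224 to 4425.5 in Krt10-low cells. Krt10 itself made up at most 0.838% of the UMIs of Krt10-high cells. Together the 9 genes made up 1.67% and 1.69% of all UMIs in the Tom+ libraries and 1.35% and 1.42% in the Tom- libraries.

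The clearest difference among the 9 genes was between Krt10-high and Krt10-low cells. S100a6 was 10.0 times lower and S100a10 1.64 times lower in Krt10-high cells, and Anxa8 was 1.90 times higher. These 3 of the 8 genes that passed the filter on low counts were called, where 6.74% of all 1231 genes tested were (3.9% higher and 2.84% lower). The counts were summed within each library and class and fitted with edgeR's quasi-likelihood test, with library as a block and Benjamini-Hochberg adjustment over all genes. In 6 of the 8 the difference had the same sign in all 4 libraries, 4 of them lower and 2 higher, as it had in 27.4% of all genes tested (13.0% lower and 14.4% higher). The median log2 fold change was -0.13 over the 8 genes and -0.02 over all genes tested.

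S100a6 encodes a calcium sensor that binds the ubiquitin ligase partner CACYBP and the co-chaperone SUGT1. In Krt10-low cells its level was 1451 CPM in Tom+ 1, 1700.1 in Tom+ 2, 540.0 in Tom- 1 and 832 in Tom- 2. In Krt10-high cells it was 28.6, 329, 0 and 78.2 CPM in the same order. Every Krt10-high value lay below every Krt10-low value. The log2 fold change was -3.33 (SE 0.43) with an adjusted p of 9.17e-05 by edgeR's quasi-likelihood test. The 2 Tom- values of Krt10-high cells came from 3 cells each, and a count of 0 in Tom- 1 allows up to 178 CPM (counting error only).

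Thinned to equal depth, S100a6 had a UMI in 6 of 10 Krt10-low cells of Tom+ 1 (95% exact binomial interval of the share 26.2% to 87.8%) and in 1 of 25 Krt10-high cells (4.00%, 0.101 to 20.4). In Tom+ 2 it had a UMI in 16 of 21 Krt10-low cells (76.2%, 52.8 to 91.8) and in 11 of 37 Krt10-high cells (29.7%, 15.9 to 47.0). In the Tom- libraries 58.8% and 64.4% of Krt10-low cells had one. These intervals cover counting error only. Without thinning 90 of the 161 cells held S100a6, against 74 with it. Leaving out 1 library kept the call and moved the log2 fold change to between -5.24 (without Tom+ 2, adjusted p 1.3e-07 by the same test) and -2.69 (without Tom+ 1, 0.00245), so its size rests on both Tom+ libraries.

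Across 3 steps of Krt10 the mean level of S100a6 fell stepwise in 3 of the 4 libraries, given as a description. In Tom+ 2 the mean was 7.0 thinned UMIs per cell in the 2 cells with no Krt10 UMI, 2.32 in the 19 cells with 1 to 5 and 0.514 in the 37 Krt10-high cells. In Tom+ 1 it was 4.63 in 8 cells, 0.5 in 2 cells and 0.0400 in 25 cells, and in Tom- 1 it was 1.0 in 9 cells, 0.5 in 8 cells and 0 in 3 cells. In Tom- 2 the cells with 1 to 5 Krt10 UMIs stood highest, at 2.13 in 8 cells against 1.51 in the 37 cells with none and 0.333 in 3 Krt10-high cells. With the class set at 1 Krt10 UMI instead of 6, the log2 fold change was -2.02 and was not called (adjusted p 0.147, edgeR).

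**Figure D1:**
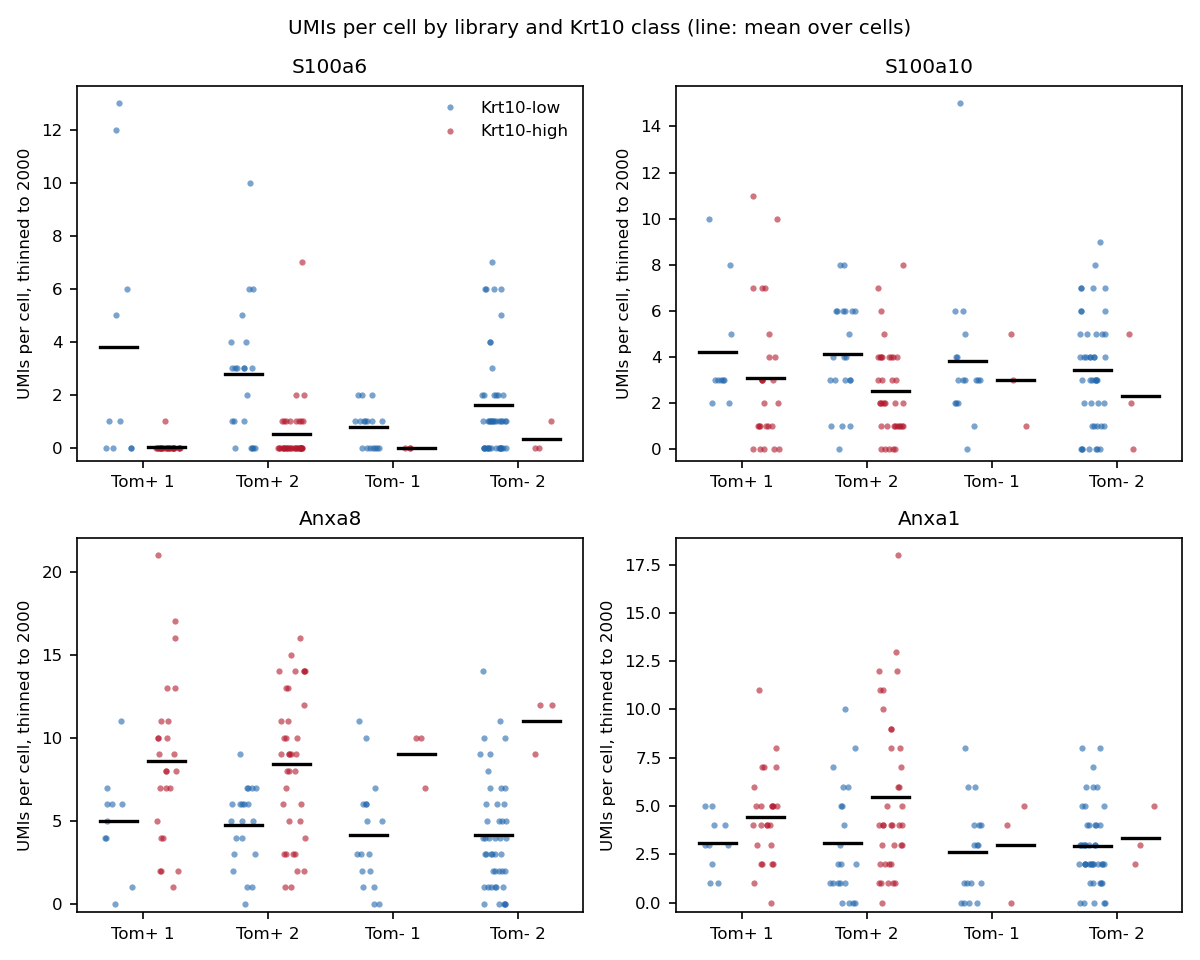
UMIs per cell, after thinning to 2000 UMIs, of S100a6, S100a10, Anxa8 and Anxa1 in each library. Points are cells, blue for Krt10-low and red for Krt10-high, and lines are means over cells. S100a6 is at 0 in 55 of 68 Krt10-high cells, S100a10 overlaps widely between the classes, and Anxa8 sits higher in Krt10-high cells of all 4 libraries.

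S100a10, the light chain that carries annexin A2 to the plasma membrane, fell less. Its level in Krt10-low cells was 2062, 2315, 2037 and 1688 CPM in Tom+ 1, Tom+ 2, Tom- 1 and Tom- 2, and in Krt10-high cells 1249, 1184, 1783 and 1016. It was lower in Krt10-high cells of all 4 libraries, though the Krt10-high value of Tom- 1 lay above the Krt10-low value of Tom- 2. The log2 fold change was -0.71 (SE 0.18, adjusted p 0.0217, edgeR's quasi-likelihood test). The call was lost without Tom+ 1 (-0.73, adjusted p 0.153) and without Tom+ 2 (-0.57, 0.215), and with ERCC spike-in scaling (-0.52, 0.589, where the median of all genes moved to 0.12). It was also lost with the DESeq2 Wald test (-0.74, adjusted p 0.110), thinned sums (-0.51, 0.188), cells of at least 5000 UMIs (-0.88, 0.104), a class limit of 1 Krt10 UMI (-0.55, 0.180) and no filter on low counts (-0.89, 0.603). The call stood in 10 of 19 alternatives other than thinning seeds and in 20 of 20 other seeds.

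Anxa8, an annexin of stratified epithelia, moved the other way. In Krt10-low cells its level was 2692, 2284, 1882 and 2247 CPM in Tom+ 1, Tom+ 2, Tom- 1 and Tom- 2, and in Krt10-high cells 4356, 4219, 3924 and 5473. The 2 sets of values did not overlap. The log2 fold change was 0.93 (SE 0.15) with an adjusted p of 0.000801 by edgeR's quasi-likelihood test. Leaving out any 1 library kept the call. It was lost when the 54 cells with at least 3 markers of infundibulum, T cells or Langerhans cells were left out (log2 fold change 0.85, adjusted p 0.308, 774 genes tested), where S100a10 was also not called (-1.11, 0.110) and S100a6 was (-3.53, 7.97e-07). Anxa8 also lost its call with a class limit of 12 Krt10 UMIs (0.59, 0.279) or of 1 (0.86, 0.0768) and with no filter on low counts (0.71, 0.950), and kept it in 15 of 19 alternatives other than seeds.

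Anxa1, the anti-inflammatory annexin and partner of S100A11, had 1470.2, 1867, 1296 and 1548 CPM in Krt10-low cells and 2517, 2759, 2259 and 1955 in Krt10-high cells. These sets did not overlap either, but the log2 fold change of 0.59 (SE 0.17) had an adjusted p of 0.0545 and was not called by edgeR's quasi-likelihood test. It was called in 7 of 39 alternatives, among them limma-voom (0.61, adjusted p 0.0110). Anxa2, which binds phospholipid and actin at the membrane, had 3206 to 4725 CPM in Krt10-high cells and 4660 to 5060 in Krt10-low cells of the 4 libraries (log2 fold change -0.32, SE 0.16, adjusted p 0.341, edgeR). Anxa5, the phosphatidylserine binder used to mark dying cells, had 0 to 239 CPM in Krt10-high cells and 262 to 458 in Krt10-low cells, from 192 UMIs in all (-0.98, SE 0.42, adjusted p 0.230, edgeR). On this summed scale both were lower in Krt10-high cells of every library, and neither was called. In thinned cells the mean of Anxa5 was higher in Krt10-high cells of Tom+ 2 (0.378 against 0.333) and Tom- 1 (0.667 against 0.529). It was lower there in Tom+ 1 and Tom- 2. The thinned mean of Anxa2 was higher in Krt10-high cells of Tom+ 2 (9.22 against 8.90) and lower in those of the other libraries.

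S100a11, whose product cross-links in the cornified envelope, differed by 0.07 (SE 0.16) on the log2 scale between the classes, and S100a14 by 0.07 (SE 0.28). Neither had the same sign in all 4 libraries. S100a16 held 58 UMIs in all and was not tested between classes. It had 133, 81.1, 59.4 and 0 CPM in Krt10-high cells and 76.4, 52.2, 123 and 52.4 in Krt10-low cells.

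**Figure D2:**
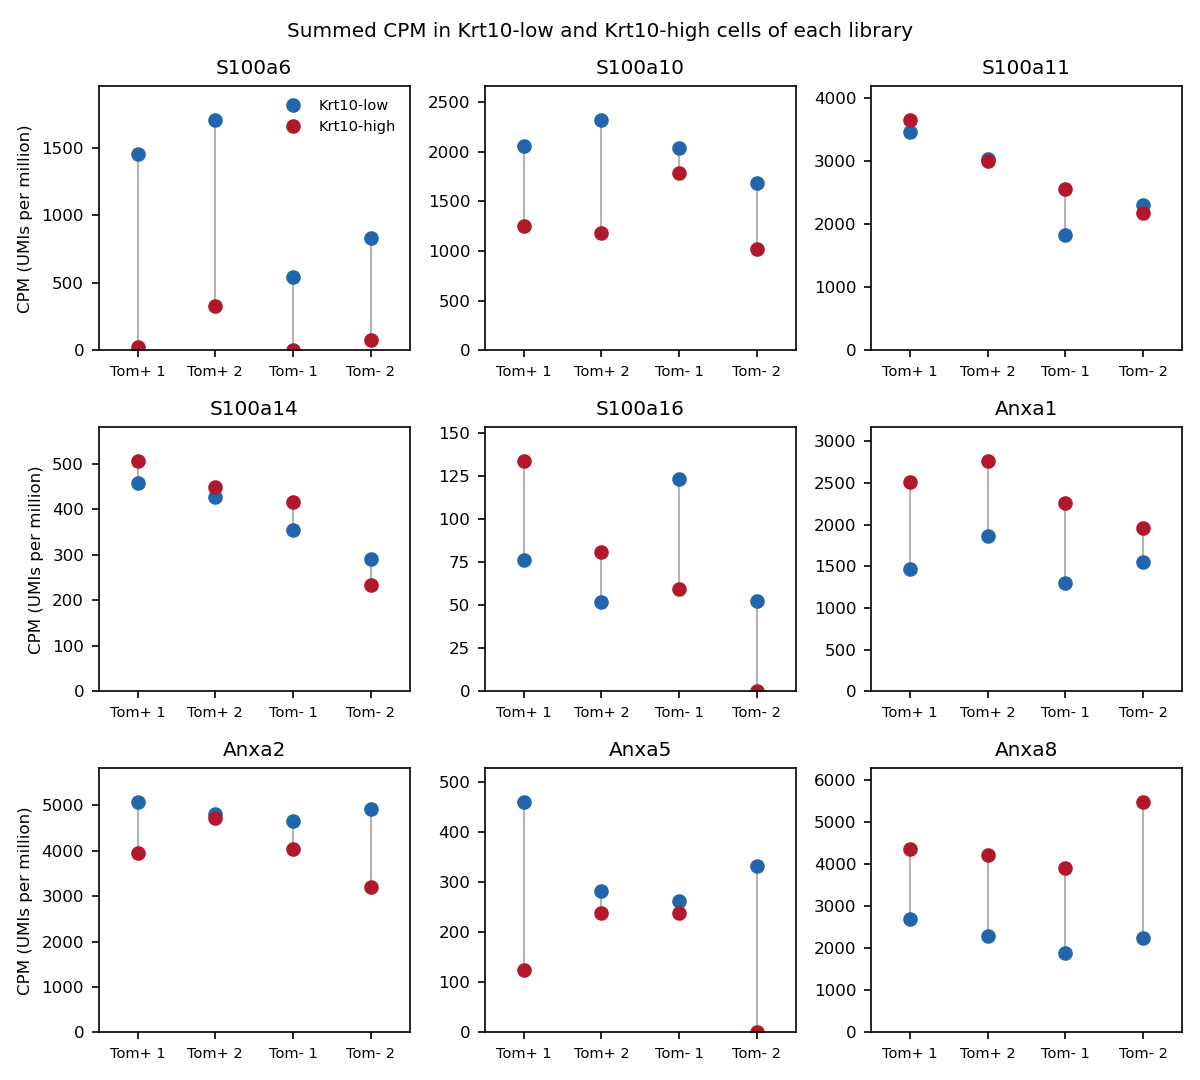
CPM of the summed counts of each gene in Krt10-low (blue) and Krt10-high (red) cells of each library, each axis starting at 0. Grey lines join the 2 classes of a library. The classes separate downwards in all 4 libraries for S100a6 and upwards for Anxa8 and Anxa1, and differ in direction between libraries for S100a11.

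Tom+ cells were next compared with Tom- cells, which asks whether tracing by the involucrin promoter separates these genes. None of the 9 was called among 3070 genes, of which 1.24% were (0.847% higher and 0.391% lower in Tom+). At an unadjusted p under 0.05 edgeR's quasi-likelihood test gave 302 genes, 3 of them among the 9, and neither DESeq2 nor limma-voom called any of the 9. S100a11 and Anxa8 were called when a run tag shared between Tom+ and Tom- libraries was taken as a block. The labels do not give the meaning of that tag. The 2 Tom+ libraries lay wholly above or wholly below the 2 Tom- libraries for 6 of the 9 genes, as they did for 38.9% of all genes tested. They lay above for 4 of the 9 and for 20.8% of all genes, and below for 2 of the 9 and for 18.0% of all genes. The median log2 fold change was 0.29 over the 9 genes and -0.01 over all genes.

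S100a11 had 3592 and 3016 CPM in the Tom+ libraries and 1985 and 2303 in the Tom- libraries. Both Tom+ values lay above both Tom- values, with a log2 fold change of 0.57 (SE 0.24, adjusted p 0.373, edgeR). Anxa8 had 3802 and 3612 CPM against 2303 and 2471 (0.59, SE 0.23, adjusted p 0.331, edgeR), and Anxa1 had 2168 and 2479 against 1495 and 1577 (0.56, SE 0.24, adjusted p 0.428, edgeR). S100a14, which takes part in cell adhesion and motility, had 489.6 and 442 against 368 and 287 (0.49, SE 0.32). In these 4 genes both Tom+ libraries were higher.

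S100a10 had 1519.6 and 1539 CPM in Tom+ and 1985 and 1642 in Tom- (-0.27, SE 0.24), and Anxa5 had 235 and 252 against 257 and 309 (-0.28, SE 0.34). In these 2 genes both Tom+ libraries were lower. S100a6 (502 and 759.6 against 429 and 780.2), Anxa2 (4317 and 4751 against 4533 and 4789) and S100a16 (114 and 72.0 against 110.3 and 48.8) overlapped between the groups. When the libraries were scaled on ERCC spike-ins instead, the median of all genes moved to 0.50 and the calls to 59 higher and 2 lower. S100a11 (1.06, 0.56 above that median, adjusted p 0.0327) and Anxa8 (1.07, 0.58 above it, adjusted p 0.0267) were then called by edgeR. On that scale S100a6, S100a10, Anxa2 and Anxa5 had values above 0 (0.53, 0.19, 0.40 and 0.24). Gene UMIs per ERCC UMI were 48.8 and 55.6 in the Tom+ libraries and 41.5 and 35.7 in the Tom- libraries.

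Since 62 of 93 Tom+ cells but 6 of 68 Tom- cells were Krt10-high, the groups were also compared among Krt10-low cells alone. Krt10 was not equal within that class either. Its mean was 0.6, 2.29, 1.12 and 0.422 thinned UMIs per cell in Tom+ 1, Tom+ 2, Tom- 1 and Tom- 2. None of 8 genes was called among Krt10-low cells by edgeR's quasi-likelihood test, where 0.152% of 1317 genes were (71 genes, 2 of them among the 8, at an unadjusted p under 0.05). S100a6 ranked 6 of 1317 by p, higher in both Tom+ libraries (1451 and 1700.1 CPM) than in both Tom- libraries (540.0 and 832). Its log2 fold change was 1.10 (SE 0.29, unadjusted p 0.000503, adjusted p 0.110). This may be set beside -0.01 over all cells. In Tom+ 1, 5 of the 10 Krt10-low cells held 96.1% of its 76 UMIs. The log2 fold change was lowest without cells with markers of another type (0.79, adjusted p 0.355, edgeR), and it was 0.81 without Tom- 1. The adjusted p ranged from 0.00831 to 1.00 over 35 alternatives, and 5 of them called it: ERCC scaling (1.71, where the median of all genes moved to 0.58), limma-voom (1.09, adjusted p 0.0475) and 3 of 20 other thinning draws.

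Among Krt10-low cells S100a11 kept a log2 fold change of 0.58 (SE 0.23, adjusted p 0.748, edgeR), with 3475 and 3046 CPM in Tom+ and 1836 and 2311 in Tom-. Anxa8 went from 0.59 over all cells to 0.20 (SE 0.24) and Anxa1 from 0.56 to 0.17 (SE 0.26). In 5 of the 8 genes the groups of libraries did not overlap, as in 32.2% of all genes tested. Tom+ was higher in all 5, as it was in 19.1% of all genes, and it was lower in 13.1%. Whether the Krt10 class difference itself differed between Tom+ and Tom- was tested as an interaction. It was called for none of the 8 genes and for 0.0% of 1231 (54 genes at an unadjusted p under 0.05, edgeR, and 0 calls by DESeq2 or limma-voom). With 3 Krt10-high cells in each Tom- library its errors were wide, as in S100a6 (1.17, SE 1.81).

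**Figure D3:**
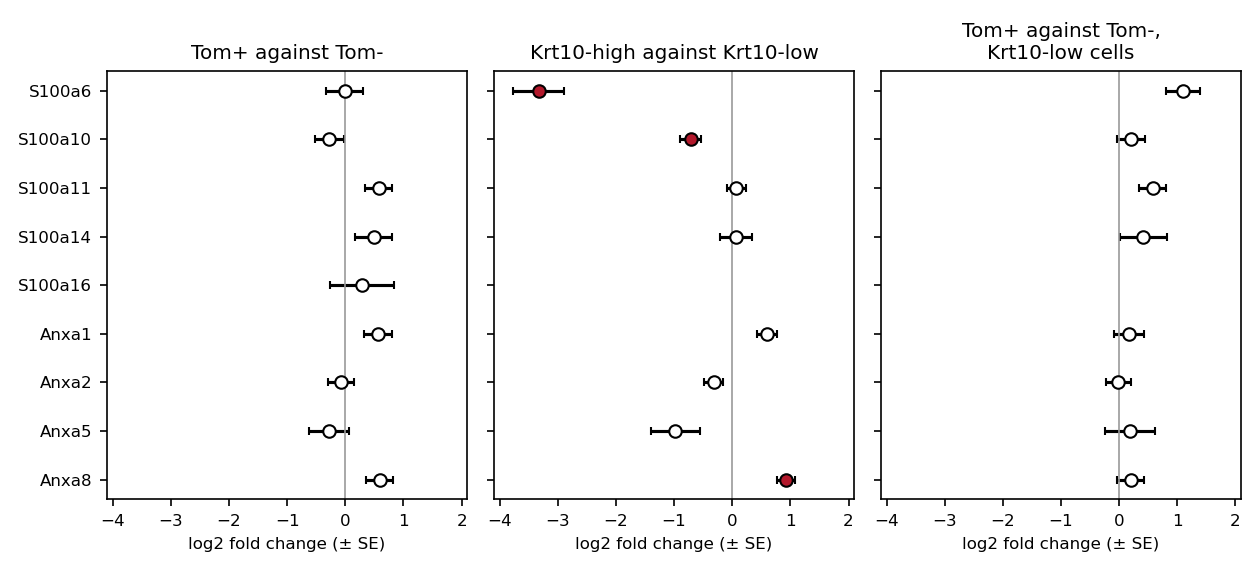
Log2 fold changes of the 9 genes with standard errors from edgeR in 3 comparisons. Filled points passed an adjusted p of 0.05, and open points did not. S100a6 stands at -3.33 between the Krt10 classes, -0.01 between Tom+ and Tom- and 1.10 between Tom+ and Tom- among Krt10-low cells, and S100a16 is missing where it was not tested.

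The spread of S100a6 between cells differed between libraries. Its variance over its mean across thinned cells was 8.80 in Tom+ 1, 3.34 in Tom+ 2, 0.854 in Tom- 1 and 2.54 in Tom- 2, where independent sampling of 1 common level gives about 1. These ratios pool the Krt10 classes, whose mix differed between libraries. Among Krt10-low cells alone S100a6 had 6.77, 2.35, 0.740 and 2.50 in the same order. In Tom+ 1, 5 of 35 cells held 92.4% of its 79 UMIs, and in Tom+ 2 5 of 58 cells held 47.8% of 232. Its ratio was the highest of the 9 genes in Tom+ 1, where S100a11 followed with 3.57. Anxa1 stood above it in Tom+ 2 (3.39) and Anxa8 in Tom- 2 (2.89), and in Tom- 1 only S100a14 was lower (0.737). Anxa2 was seen in all 161 thinned cells, S100a11 in 156, Anxa8 in 152, Anxa1 in 145 and S100a10 in 141. S100a14 was seen in 84, S100a6 in 74, Anxa5 in 48 and S100a16 in 21, so the spread of these 4 rests on few UMIs.

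How the genes varied together was described by Pearson's r across the cells of a library on ln(UMI + 1) of thinned counts, averaged over the 4 libraries. The cells of a library share its preparation, so the r carries no test. Since 1 random thinning moves these values, the median and range over 21 draws are given. The highest of the 36 pairs were S100a10 with S100a11 (0.38, 0.30 to 0.51), Anxa1 with Anxa8 (0.35, 0.28 to 0.43) and S100a10 with Anxa2 (0.31, 0.20 to 0.41). S100a6 with S100a10 (0.29, 0.20 to 0.40), S100a11 with Anxa2 (0.29, 0.17 to 0.41) and S100a11 with its known partner Anxa1 (0.23, 0.12 to 0.35) came next. S100a6 with Anxa8 was the lowest in all 21 draws (-0.29, -0.38 to -0.21), although in the draw used throughout Tom- 2 went the other way (0.155, against -0.327, -0.446 and -0.453 in Tom+ 1, Tom+ 2 and Tom- 1). The pair that forms the annexin A2 tetramer stood between rank 1 and rank 6 in the 21 draws.

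In the draw used throughout, S100a10 with Anxa2 had r of 0.0458 in 35 cells of Tom+ 1 and 0.0396 in 58 of Tom+ 2. It had 0.461 in 20 cells of Tom- 1 and 0.255 in 48 of Tom- 2. The mean was 0.200 (SD 0.200 between libraries), the lowest of the 21 draws, whose median was 0.314. The r values and the rank that follow come from this same draw. In Krt10-low cells alone the mean was 0.241, and in Krt10-high cells of the 2 Tom+ libraries it was -0.0314. Over the 366 other genes with a mean of at least 0.5 thinned UMIs in every library, the median r with S100a10 was 0.0774, and Anxa2 ranked 68 among them. The number of S100a10 UMIs per Anxa2 UMI was 0.408 and 0.482 in Krt10-low cells of Tom+ 1 and Tom+ 2 and 0.316 and 0.251 in their Krt10-high cells. In Tom- 1 it was 0.437 and 0.441 and in Tom- 2 0.344 and 0.317. The ratio was lower in Krt10-high cells of 3 libraries.

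**Figure D4:**
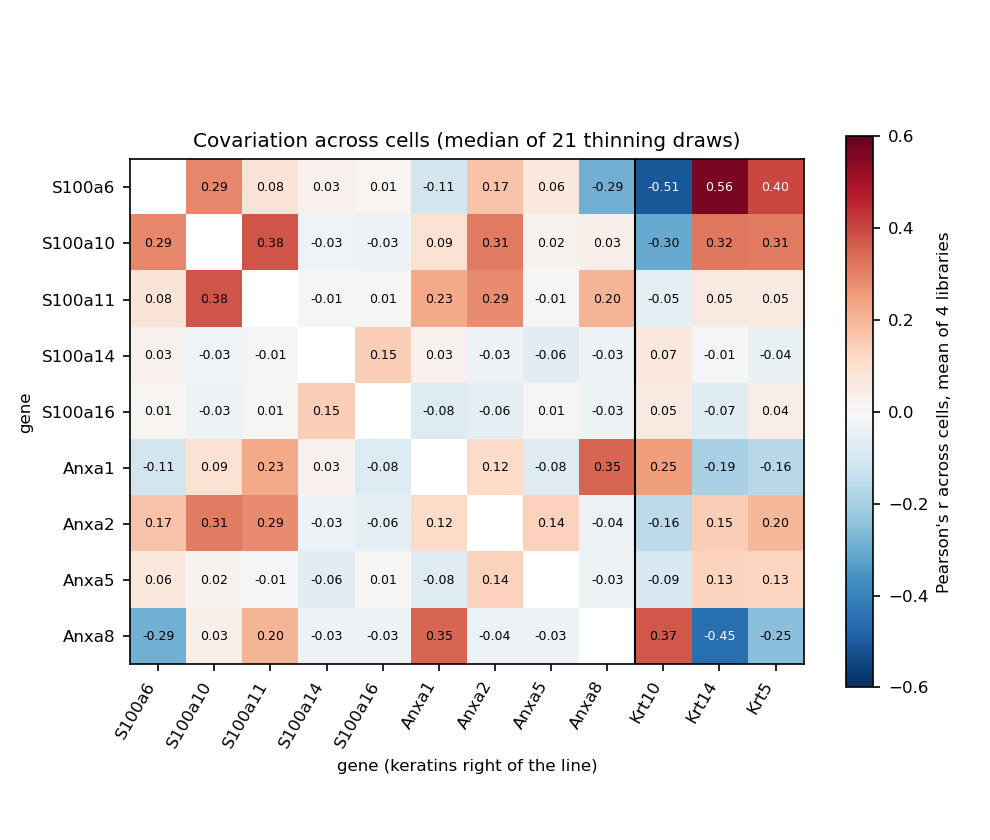
Pearson's r across cells of each pair of the 9 genes and of each gene with Krt10, Krt14 and Krt5, as the mean of 4 libraries and the median of 21 thinning draws. Red is positive and blue negative. S100a6 and S100a10 are positive with Krt14 and Krt5 and negative with Krt10, Anxa8 and Anxa1 are the reverse, and S100a14 and S100a16 stay within 0.15 of 0 with every gene.

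The genes also differed in how they varied with the keratins. Krt14 and Krt5 are the keratin pair of undifferentiated basal cells. S100a6 had a median r of 0.56 with Krt14 (0.53 to 0.61 over 21 draws), 0.40 with Krt5 and -0.51 with Krt10. Within the draw used throughout, its r with Krt14 was 0.704, 0.561, 0.510 and 0.361 in Tom+ 1, Tom+ 2, Tom- 1 and Tom- 2. Among Krt10-low cells only the mean r was 0.471, with 0.368 to 0.643 in the 4 libraries. Anxa8 had -0.45 with Krt14 and 0.37 with Krt10. Within Krt10-low cells its mean r was -0.232 with Krt14 and 0.0664 with Krt10, the latter from -0.321 to 0.300 in the 4 libraries. Within Krt10-high cells of the Tom+ libraries it was -0.344 with Krt14 and 0.0399 with Krt10. That last mean joins -0.282 in Tom+ 1 and 0.362 in Tom+ 2. S100a10 had 0.32 with Krt14 and -0.30 with Krt10, and within Krt10-low cells 0.345 and -0.207. S100a11 was near 0 with all 3 keratins (0.05, 0.05 and -0.05 with Krt14, Krt5 and Krt10).

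**Figure D5:**
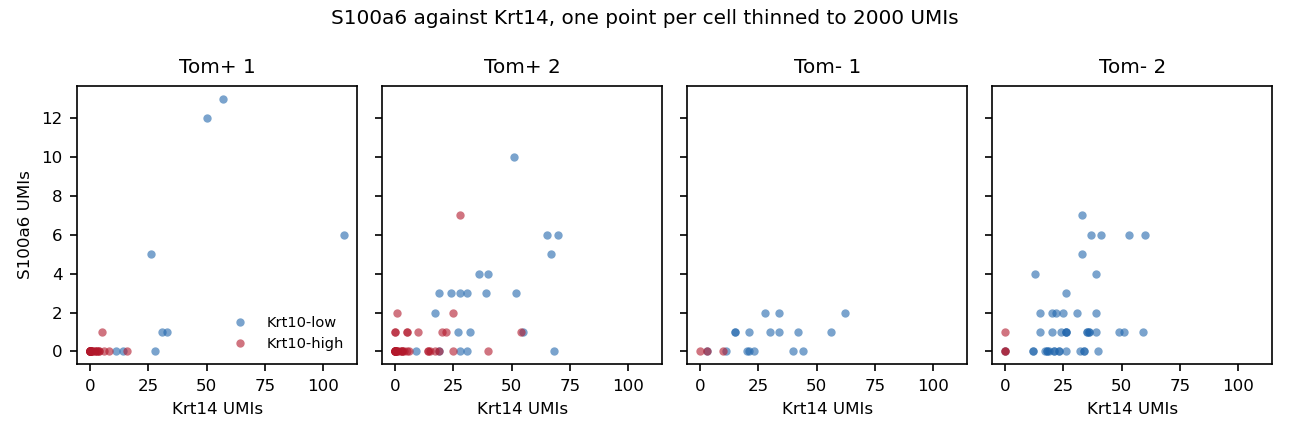
S100a6 against Krt14 in UMIs per cell thinned to 2000, with 1 panel for each library and 1 point for each cell (blue Krt10-low, red Krt10-high). Cells with 2 or more S100a6 UMIs mostly lie above 0 Krt14 UMIs, but so do most cells of any S100a6 level. Krt14 is above 0 in 22 of 35, 47 of 58, 19 of 20 and 44 of 48 cells of Tom+ 1, Tom+ 2, Tom- 1 and Tom- 2. The r is 0.361 to 0.704 in the 4 libraries, and the 2 cells highest in S100a6 are in Tom+ 1.

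The genes most like each of the 9 were sought by the same mean r. For S100a6 they were Krt14 (0.53), Fcgbp (0.38) and Krt5 (0.35), and Krt14 was among the first 3 in all 21 draws and Krt5 in 20. For Anxa8 they were Dmkn (0.55), Krtdap (0.44) and Fam25c (0.40), in 19, 12 and 17 draws. Dmkn and Krtdap encode secreted proteins of differentiating keratinocytes. For the other genes the first 3 changed between draws. In the draw used throughout they were Rpl35, Rps29 and Rps28 for S100a10, Rplp2, Rps28 and Rps16 for S100a11, and Rplp1, Rpl35 and 1810037I17Rik for Anxa1, with mean r of 0.37 to 0.50. Over the 21 draws the most frequent was Fth1 for S100a10 (8 draws, with Rpl35 in 7) and Rplp1 for S100a11 (8, with Rplp2 in 7). For Anxa1 it was Rplp1 (10 draws), followed by Krtdap (9) and by Dmkn, Fam25c and Rpl35 (6 each). Anxa2 was closest to Ppia (0.40, in 11 draws), Gm6654 (0.34) and Rps3 (0.31). For S100a14, S100a16 and Anxa5 no mean r passed 0.27.

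None of the other genes of these families and pathways that were tested was called by edgeR's quasi-likelihood test in any comparison. At an unadjusted p under 0.05 there were 1 other S100 gene and 1 repair gene between Tom+ and Tom-, and 2 binding partners and 1 repair gene between the classes. Of 11 other S100 genes measured, 5 had any UMI and only S100a13 was tested (log2 fold change -1.02, SE 0.45, adjusted p 0.442 between Tom+ and Tom-, edgeR). Of 8 other annexins 7 had a UMI and Anxa4 and Anxa7 were tested, with 0.18 and 0.12 between Tom+ and Tom- and -0.33 and 0.64 between the Krt10 classes. Of 9 binding partners of S100a10, Anxa2 or S100a6, 7 had a UMI and 4 were tested between Tom+ and Tom-. Ahnak, the giant scaffold that binds S100A10 with annexin A2, had 1132 to 1920.1 CPM in the 4 libraries and differed by 0.42 (SE 0.19, adjusted p 0.255, edgeR) between the Krt10 classes. Ctsb, a protease held at the surface by this complex, differed by -0.91 (SE 0.30, adjusted p 0.0908, edgeR).

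All 8 genes of calcium-dependent membrane repair, in which annexins seal torn membranes, had UMIs, and 4 were tested between Tom+ and Tom- and 2 between the classes. Cav1, the coat protein of caveolae, differed by -1.34 (SE 0.42, adjusted p 0.0739, edgeR) between the classes. Pdcd6 differed by -0.28 (SE 0.49). Of 17 S100-fused and cornified envelope genes of the epidermal differentiation complex 7 had any UMI and none could be tested. Sprr1a had 30 UMIs in 8 cells, at 91.7 CPM in Tom+ 2, 12.7 in Tom+ 1 and 0 in both Tom- libraries, and Lor and Ivl had 5 each. The median log2 fold change of the repair genes between the classes was -0.81 and that of the partners -0.25, against -0.02 over all genes, from 2 genes each.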

How the data were processed

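The 4 tables of UMI counts were deposited by the authors as whole counts for each gene and well of a Fluidigm C1 run, 1 table for each library. The aligner is not given in the sources used here, and the submitters' processing notes name GRCm38 (mm10). Wells with at least 2000 gene UMIs were kept as cells. Each cell was thinned to 2000 UMIs without replacement (seed 1) to set Krt10 classes, shares and correlations, and unthinned counts were summed per library, or per library and class, for tests. The sums were scaled by TMM, filtered for low counts by filterByExpr and tested, two-sided, by the quasi-likelihood F test of edgeR 4.0.16 in R 4.3.3, with Benjamini-Hochberg adjustment and a threshold of 0.05. Krt10 was left out of the class sums. DESeq2 1.42.0 and limma 3.58.1 were alternatives, with ERCC scaling, other filters, depths, class limits and 20 other thinning seeds. The fits were tested on simulated counts in which the changed genes differed 4-fold or more. Recovery was counted only over changed genes that passed the filter on low counts, and those that it removed were left out. Between Tom+ and Tom- 182 of 192 (94.8%) were recovered, and between the classes 126 of 127 (99.2%). Among Krt10-low cells it was 172 of 190 (90.5%), and for the interaction 59 of 112 (52.7%). Smaller changes were not simulated, so these shares say nothing about how often such changes would be called. Genes left unchanged in the simulation made up 4 of 186 calls between Tom+ and Tom- and 12 of 138 between the classes. They made up 4 of 176 among Krt10-low cells and 1 of 60 for the interaction. Named genes were the 9 members, 3 keratins, the 3 genes most like each member, and from each gene list those called or otherwise the 2 with the highest mean. The members and lists were chosen with earlier results of these data known. Doublets were not called, and steps for removing them are not given in the sources used here.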

Additional observations from a re-analysis of the deposited data

How the results depend on the processing

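Of 8 or 9 genes tested, the number called between Tom+ and Tom- was 0 and became 2 with ERCC scaling and 2 with a replicate block (S100a11 and Anxa8 in both). With the block, 116 genes were called (63 higher, 53 lower) against 38 without it. The block rests on a run tag whose meaning the labels do not give. Libraries with the same tag deviated together with a correlation of 0.1306 over 3070 genes, from 2 pairs, which does not show that they are paired. Among Krt10-low cells the block called 0, and between the classes 3 were called with and without it. Between the classes the 3 calls became 1 with no filter on low counts, 1 without cells with markers of another type and 0 with a class limit of 1 Krt10 UMI. The interaction count of 0 became 1 at that limit, where S100a6 reversed to -2.62 (adjusted p 0.0234, edgeR). Among Krt10-low cells the count of 0 became 2 with ERCC scaling, and 1 with limma-voom and with 3 of 20 other thinning seeds. The mean r of S100a10 with Anxa2, 0.200, moved to 0.424 with scaled counts, -0.0314 in Krt10-high cells and -0.243 in cells of at least 5000 UMIs. Such deep cells numbered 10, 25, 4 and 12 in Tom+ 1, Tom+ 2, Tom- 1 and Tom- 2, and each library weighed the same in the mean. All 20 other seeds gave a higher mean r than 0.200, from 0.262 to 0.409. The cause was not tested for any of these. Leaving out 1 library gave 0 to 0 calls between Tom+ and Tom-, 2 to 4 between the classes, 0 to 0 for the interaction, 0 to 0 among Krt10-low cells and a mean r of 0.113 to 0.254. The seeds for the other pairs and the genes most alike were chosen after seeing the data.

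Over all genes, the 38 calls between Tom+ and Tom- became 61 with ERCC scaling, 65 without Tom- 1, 24 with thinned sums and 8 at 5000 UMIs. The 83 calls between the classes became 12 at the limit of 1 Krt10 UMI, 29 at 5000 UMIs, 44 with thinned sums, 51 in Tom+ alone, 54 without Tom+ 1 and with no filter, 126 with the class from scaled counts, and 75 to 132 over the seeds. The 2 calls among Krt10-low cells ranged from 0 to 12 and the 0 of the interaction from 0 to 8. With 3 Krt10-high cells in each Tom- library, the simulated interaction recovered 30.4% of the 4-fold changes that passed the filter on low counts. Of the values for single genes, 992 kept their side of the threshold or, for levels with no test, moved by less than the spread between libraries. Among these, 134 changed sign, all in genes called in neither fit. Another 21 gained and 14 lost a call, 1 reversed, and 9 levels moved on another scale.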

Other observations

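Cells with at least 3 infundibulum markers were compared with the other cells as values, without a test. S100a6 had a mean of 0 thinned UMIs per cell in the 6 such cells of Tom+ 1 and 1.34 in the other 29. In Tom+ 2 it was 1.64 against 1.09, in Tom- 1 0.286 against 0.846 and in Tom- 2 1.79 against 1.44. Anxa8 had 8.67 against 7.34, 6.24 against 7.73, 5.14 against 4.77 and 3.79 against 4.94 in the same order. Neither gene was higher, or lower, in these cells of all 4 libraries. The Krt10 classes were mixed unevenly in them, with 5 of 6, 17 of 25, 2 of 7 and 0 of 14 Krt10-high in the same order. Among Krt10-low cells alone neither gene had 1 direction in all 4 libraries either, with 1 such cell in Tom+ 1.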
